A study of Mus musculus with 2 samples.

Results

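The genes Mir219a-1, Mir219a-2, Mir219b and Mir338 encode the microRNAs (miRNAs) miR-219 and miR-338, which are known from oligodendrocytes, the cells that wrap axons in myelin. They were taken by gene symbol from the GENCODE M21 annotation and are 4 of the 2202 miRNA genes in the files. Small RNA was sequenced from left cerebral cortex, with 1 library from each of 2 males of the mouse cross B6CASTF1/J at 25 days of age. This cross is the F1 of C57BL/6J and CAST/EiJ, both inbred, and no treatment or engineered allele is given. Both mice form 1 group, numbered as biological replicates 2 and 1, so the design implies a description of levels and a comparison of replicate 2 with replicate 1.

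A miRNA is cut as a duplex from the 5p and 3p arms of a hairpin precursor, and one strand is loaded into an Argonaute protein. Bases 2 to 8 of the loaded strand, the seed, pair with target mRNAs, which are then repressed. In the rodent brain and spinal cord miR-219 and miR-338 rise as oligodendrocyte progenitors stop dividing. They repress factors that hold the cells in the progenitor state, among them the growth factor receptor Pdgfra and the transcription factors Sox6 and Hes5. The mouse cortex is being myelinated during the weeks after birth. The samples are bulk tissue, so fewer oligodendrocytes and less of a miRNA per cell cannot be told apart.

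The mature sequences show which of these genes a read can be assigned to. They are RefSeq sequences on build GRCm38.p6, written 5′ to 3′ with the seed in capitals, and all 4 genes had an entry. The first sequence, miR-219a-5p, is cut from both Mir219a-1 and Mir219a-2, and the others each come from 1 of the 6 hairpins described here, which include the genes annotated on the other strand.
miR-219a-5p: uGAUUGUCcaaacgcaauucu
miR-219a-1-3p: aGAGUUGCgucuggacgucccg
miR-219b-5p: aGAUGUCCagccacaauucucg
miR-219b-3p: aGAAUUGCguuuggacaaucagu
miR-219c-5p: gGACGUCCagacgcaacucucg
miR-219c-3p: cGAGAAUUgcguuuggacaauc
miR-338-5p: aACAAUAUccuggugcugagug
miR-338-3p: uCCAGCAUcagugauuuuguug
miR-3065-5p: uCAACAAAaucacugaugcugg
No seed of these sequences was found in another of the 1674 distinct mature sequences in the table, so miR-219a-5p and miR-338-3p shared no seed with each other or with another listed miRNA. The table is not complete, and miR-219a-2-3p, the other arm of Mir219a-2, is named here without sequence.

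Reads of miR-219a-5p cannot be assigned to a gene by sequence. Its 21 bases stand in both miR-219a hairpins, within a run of 22 identical bases, shown here in capitals in each hairpin.
Mir219a-2, chr2:29845631-29845727, reverse strand: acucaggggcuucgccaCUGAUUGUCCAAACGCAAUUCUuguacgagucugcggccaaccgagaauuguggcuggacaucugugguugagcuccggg
Mir219a-1, chr17:34024983-34025092, reverse strand: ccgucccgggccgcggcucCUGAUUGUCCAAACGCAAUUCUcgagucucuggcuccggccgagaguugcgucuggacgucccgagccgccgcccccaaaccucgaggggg
The deposited files set aside reads that match several loci, 5818669 in replicate 2 (52.8% of mapped reads) and 2636677 in replicate 1 (48.6%). A read that lies wholly within the capitals and has no mismatch belongs to that class. The counts of Mir219a-2 and Mir219a-1 therefore leave such reads out, and no value in the files says how many there were. Of the distinct mature sequences in the table, 59 (3.52%) stood in more than 1 hairpin, and 140 of its 1005 hairpins (13.9%) shared at least 18 bases with another locus. Mir338 was not among these: its longest run shared with another hairpin was 15 bases. The levels of miR-219 below are thus those of the assigned reads, while the level of Mir338 does not have this limit within the table.

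The genes lie at 3 loci. Mir219a-2 (ENSMUSG00000065485.1; 97 bases) is outside protein-coding genes, 628 bases from Urm1 and 23436 bases from Cercam. Mir219b (ENSMUSG00000105010.1; chr2:29845647-29845711, 65 bases) is annotated on the forward strand inside Mir219a-2, and all its bases are complementary to bases 17 to 81 of the Mir219a-2 hairpin. Mir219a-1 (ENSMUSG00000065555.1; 110 bases) lies between the Polycomb gene Ring1, 302 bases away, and H2-Ke6, 940 bases away, and shares 88 bases with the long non-coding RNA gene Gm26940 on the same strand. Mir219c (chr17:34025012-34025071, 60 bases) is annotated opposite it. Mir338 (ENSMUSG00000065600.1; chr11:120014765-120014862, 98 bases) lies on the reverse strand in the intron between exons 7 and 8 of the transcript Aatk-201, on the same strand as this kinase gene. Mir3065 (chr11:120014767-120014853, 87 bases) is annotated opposite Mir338. Every one of the 3 hairpins with counts thus has an annotated miRNA gene on its other strand. The hairpin of Mir219a-1 is 69.1% G and C, against 55.7% for Mir219a-2, 56.1% for Mir338 and a median of 51.7% over the 1005 hairpins.

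**Figure D1:**
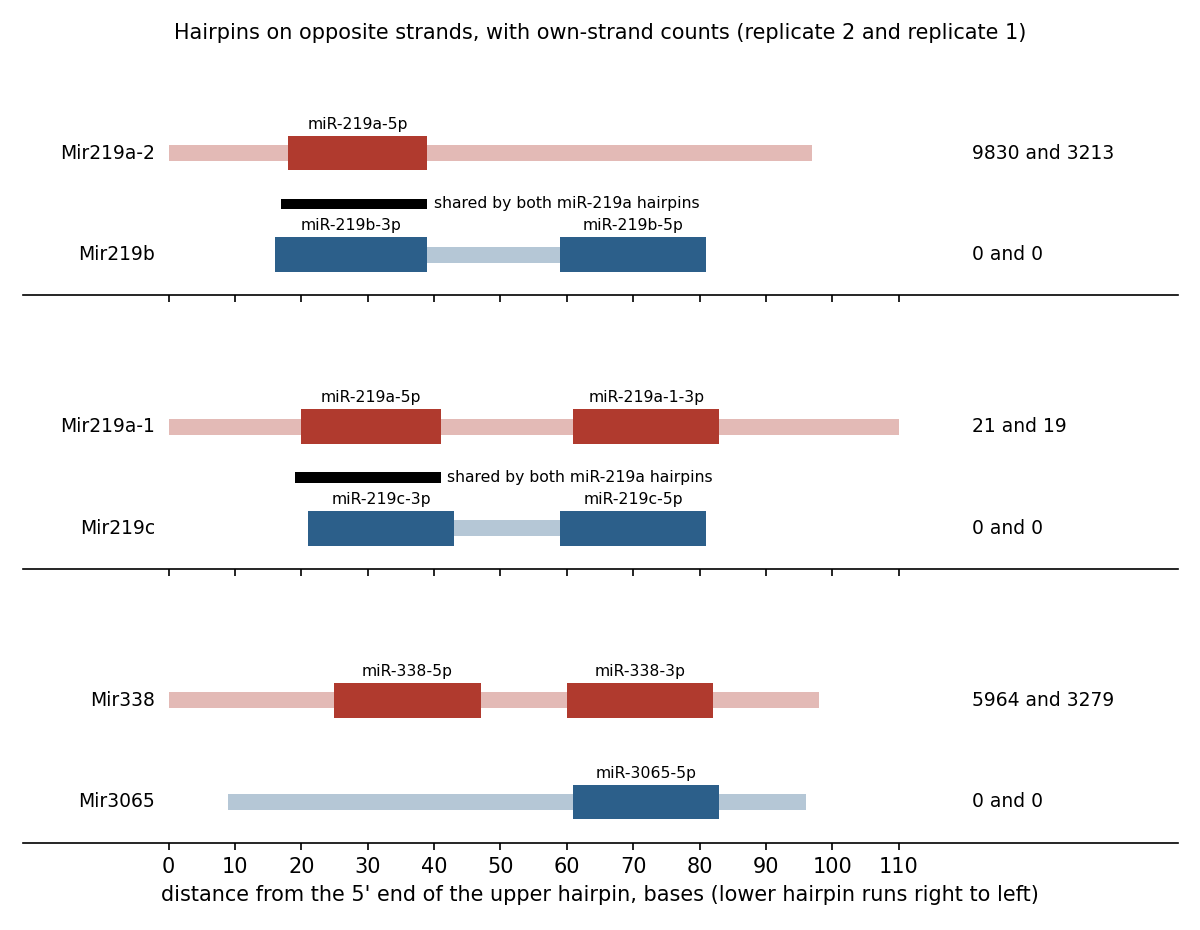
Hairpins of the 3 loci drawn to scale, with distance in bases from the 5′ end of the upper hairpin on the x axis. Pale bars are hairpins, dark bars mature miRNAs listed in RefSeq, black bars the 22 bases shared by Mir219a-2 and Mir219a-1, and the numbers at the right are own-strand counts in replicate 2 and replicate 1. The upper hairpins carry all counts (9830 and 3213 for Mir219a-2) and the lower ones 0.

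Levels are raw counts on the strand of the gene and counts per 1000000 of the library's own-strand total (CPM), which was 4447390 in replicate 2 and 2388379 in replicate 1. Reads have no molecular identifiers, so intervals and floors cover counting error only. The floor of 3 counts stands at 0.675 CPM in replicate 2, against 1.26 CPM in replicate 1. In replicate 2 the 4 genes together took 0.356% of all counts (0.350 to 0.361%, the 95% exact Clopper-Pearson interval), against 0.273% in replicate 1 (0.266 to 0.279%).

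Mir219a-2 and Mir338 held nearly all of this sum. Mir219a-2 had 9830 counts in replicate 2 and 3213 in replicate 1, which are 2210.3 CPM (interval 2167 to 2254) and 1345 CPM (1299 to 1393). It ranked at place 70 of the 736 genes with a count in replicate 2 and at place 91 of 638 in replicate 1, and its mean was 1778 ± 612 CPM (SD, n = 2). Mir338 had 5964 counts in replicate 2 and 3279 in replicate 1, or 1341 CPM (1307 to 1375) and 1373 CPM (1326 to 1421), at places 94 and 88. Its mean of 1357 ± 22.5 CPM (SD, n = 2) had a spread far under that of Mir219a-2. The median gene of those tested below, which reach 10 counts in both libraries, stood at 129 CPM in replicate 2, against 109 CPM in replicate 1, well below both.

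Mir219a-1 had far fewer counts than Mir219a-2 and Mir338. It had 21 counts in replicate 2 and 19 in replicate 1, or 4.72 CPM (2.92 to 7.22) and 7.96 CPM (4.79 to 12.4), with a mean of 6.34 ± 2.29 CPM (SD, n = 2). Its places were 383 of the 736 genes with a count in replicate 2 and 340 of 638 in replicate 1, near the middle of each. Mir219b had 0 counts in both libraries, which allows up to the floor of 0.675 CPM in replicate 2, against 1.26 CPM in replicate 1. By mean CPM the order was Mir219a-2, Mir338, Mir219a-1 and Mir219b, and it was the same per 100 annotated bases, where Mir219a-2 stood at 2279 CPM in replicate 2, against 1387 CPM in replicate 1 and Mir338 at 1368 and 1401 CPM. The first 2 neighbours in this order do not differ beyond their spread, since Mir338 was the higher of them in replicate 1. Mir338 lay above Mir219a-1, and the counting interval of Mir219a-1 above the floor of Mir219b, in both libraries.

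**Figure D2:**
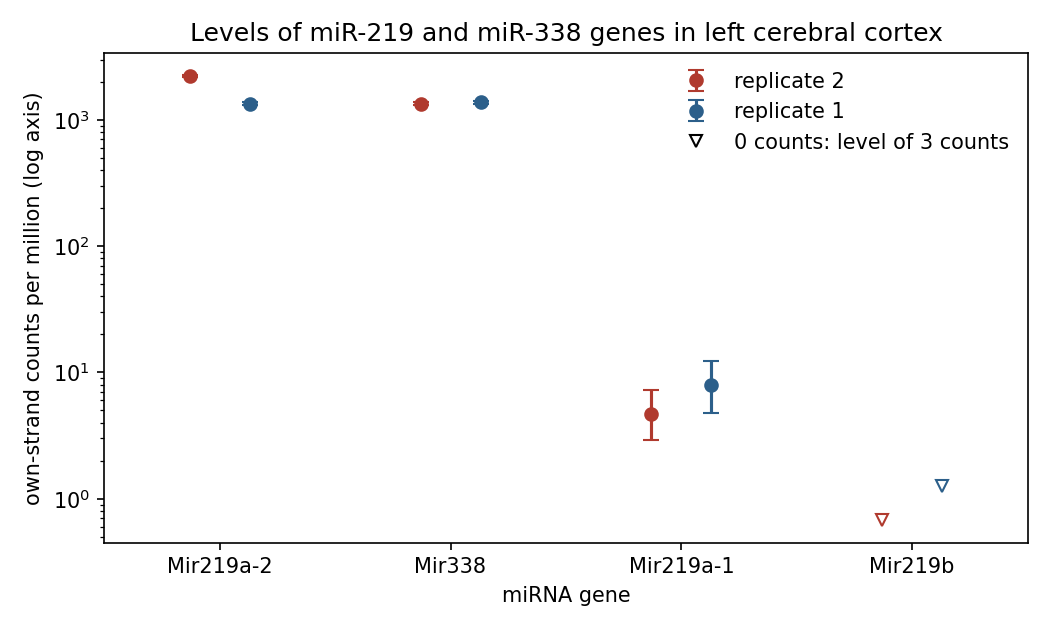
Own-strand CPM on a log axis for the 4 genes, with replicate 2 at the left and replicate 1 at the right of each gene. Points are library values with 95% exact Clopper-Pearson intervals, and open triangles mark the level of 3 counts where a gene had 0. Mir219a-2 and Mir338 lie between 1341 and 2210.3 CPM, and Mir219a-1 at 4.72 and 7.96 CPM.

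The 2 copies of miR-219a stood far apart in assigned reads. For each count of Mir219a-1 there were 468 counts of Mir219a-2 in replicate 2 (exact interval 306 to 757) and 169 in replicate 1 (108 to 281), or 531 and 192 per annotated base. Mir219a-2 thus supplied 99.8% of the assigned reads of the pair in replicate 2 and 99.4% in replicate 1. Both values leave out the reads within the 22 shared bases, so they do not give the shares of miR-219a-5p that come from each copy.

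Counts by strand put all reads of these loci on 1 side. At Mir219a-2 the files list 9830 counts in replicate 2 and 3213 in replicate 1 on its own strand and 0 on the opposite strand in both. The entry of Mir219b mirrors this, with 0 on its own strand and 9830 and 3213 opposite to it. Each read counted for Mir219a-2 therefore overlapped the 65 bases of Mir219b, and the forward strand held 0 reads. The floor of 3 counts is 0.0305% of the 9830 reads in replicate 2 and 0.0934% of the 3213 in replicate 1. Per annotated base, Mir219a-2 was 2196-fold above the floor of 3 counts for Mir219b in replicate 2 and 718-fold above it in replicate 1. The strands of Mir338 and Mir3065 were split in the same way, with 0 counts for Mir3065. The floor there is 0.0503% in replicate 2 and 0.0915% in replicate 1. At Mir219a-1 all 21 and 19 reads lay on its own strand too, of which 20 in replicate 2 and 17 in replicate 1 overlapped Mir219c.

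Such a split was usual among the loci with genes on both strands. The files hold 32 pairs of miRNA genes that overlap on opposite strands, and 21 of them had at least 100 counts on one strand in each library. In 17 of the 21 the other strand had 0 counts in both libraries, Mir219a-2 with Mir219b and Mir338 with Mir3065 among them. The lowest share on the more abundant strand was 99.96% in replicate 2 and 99.1% in replicate 1. When reads were counted without regard to strand, those in such overlaps were set aside as ambiguous, and Mir219a-2 and Mir338 then stood at 0 counts in both libraries. Mir219a-1 then stood at 1 count in replicate 2 and 2 in replicate 1. The 4 genes made up 4.16% of all ambiguous reads in replicate 2 (15814 of 380286) and 3.91% in replicate 1 (6509 of 166659). Their level can thus be read only from the column of own-strand counts.

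Between the libraries Mir219a-2 was higher in replicate 2, and Mir338 and Mir219a-1 did not pass the test. Each gene with at least 10 counts in both libraries, 392 in all, was tested given the library totals with a two-sided exact binomial test, and p-values were adjusted over all 392 by the Benjamini-Hochberg method. This test covers counting error alone and compares these 2 libraries, not conditions. Over all genes 56.9% passed in either direction, 34.2% as higher and 22.7% as lower in replicate 2 (134 and 89 genes, or 107 and 119 with all mapped reads as the total). Mir219a-2 was 1.64-fold higher in replicate 2 (exact interval 1.58 to 1.71), a log2 ratio of 0.72 with a counting SE of 0.029 and an adjusted p of 3.36e-141 in the exact test. Mir338 had a log2 ratio of −0.034 (interval −0.096 to 0.028, adjusted p = 0.376 in the exact test), and under TMM scaling it passed at −0.092. Mir219a-1 had a log2 ratio of −0.75 with a wide interval of −1.72 to 0.22 (adjusted p = 0.153 in the exact test). So 1 of the 3 genes tested passed, which read against 56.9% of all genes is no result about these genes as a set. Mir219a-2 and Mir219a-1 differed by over 1.5-fold, as did 27.6% of all genes tested.

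Genes in general differed between these libraries by more than counting error. Among the 242 genes that reached 100 counts in both libraries, the SD of the log2 ratios was 0.56 and their median 0.089, while the median counting SE was 0.046. In 29 of the 242 genes (12.0%) the log2 ratio was at or above that of Mir219a-2, and in 40 (16.5%) its size was. In 13 genes (5.37%) the log2 ratio was as close to 0 as that of Mir338 or closer. Each of these counts includes the gene itself and holds for scaling by library totals. With TMM the log2 ratio of Mir338 was −0.092, further from 0. With the spread between the libraries allowed for in edgeR's exact test (biological coefficient of variation 0.311), 3 of 392 genes (0.765%) passed, none of them a miR-219 or miR-338 gene, and 19 had an unadjusted p under 0.05. Mir219a-2 had an unadjusted p of 0.268 and an adjusted p of 1 there. The dispersion in that test was estimated from the same 2 libraries, so the differences under test also set its variance. A gene with a difference of usual size was thus likely to fail, and nothing is concluded from these p-values. By its counting SE and the shares above, the excess of Mir219a-2 in replicate 2 is larger than counting error. It is within the range that many genes of these libraries show.

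**Figure D3:**
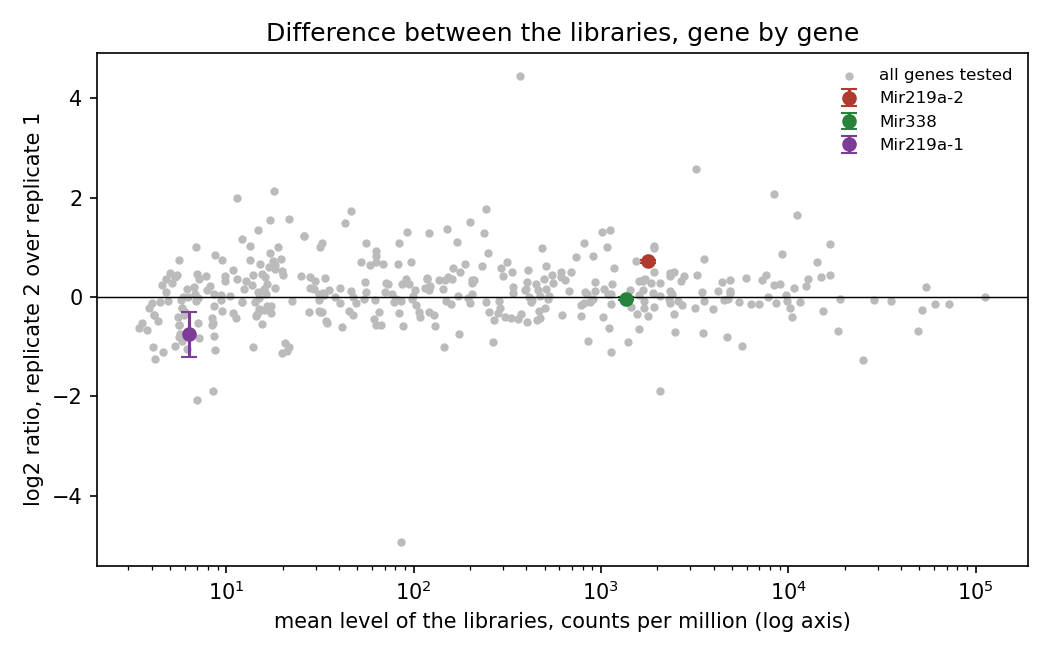
Log2 ratio of replicate 2 over replicate 1 against mean level in CPM on a log axis, for the 392 genes tested (grey) and the 3 tested miR-219 and miR-338 genes (coloured, bars are the counting SE). Mir219a-2 at 0.72 lies above most genes of like level, Mir338 at −0.034 lies close to 0, and Mir219a-1 at −0.75 has the widest bar of the 3.

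The ratio of Mir219a-2 to Mir338 needs no scaling by library totals. There were 1.65 counts of Mir219a-2 per count of Mir338 in replicate 2 (exact interval 1.60 to 1.70) and 0.980 in replicate 1 (0.933 to 1.03). Of the reads of this pair, Mir219a-2 took 62.2% in replicate 2 and 49.5% in replicate 1. The ratio was 1.68 times as high in replicate 2 as in replicate 1 (exact conditional interval 1.59 to 1.78). In assigned reads the genes were thus about level in replicate 1 and unequal in replicate 2, a description of 1 mouse and 1 library on each side. The counts of Mir219a-2 leave out reads of miR-219a-5p that match several loci, and those of Mir338 have no such limit within the table. The ratio is therefore not the ratio of the miRNAs, and the order in replicate 1 holds for assigned reads only.

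Other measures also differed between the libraries. Unmapped reads were 18.2% of reads in replicate 2 and 31.6% in replicate 1, and replicate 2 had 1.86 times the own-strand counts. The 4 genes on the list for endothelium and mural cells, the cells of blood vessels, summed to 28009.5 CPM in replicate 2, against 16755 CPM in replicate 1, led by Mir126a at 22504 and 10782 CPM, while Mir126b had 0 counts. Only Mir126a of the 3 tested was higher in replicate 2 past the test, Mir143 and Mir145a were lower, and without Mir126a the list summed to 5506 CPM in replicate 2, against 5973 CPM in replicate 1. The neuron list, with 10 genes in the files, summed to 68452 CPM in replicate 2, against 81660 CPM in replicate 1, led by Mir132 at 37793 and 60392 CPM. The test called 3 of its 7 tested genes higher and 2 lower, with a median log2 ratio of 0.34. Without Mir132 the list summed to 30659 CPM in replicate 2, against 21268 CPM in replicate 1. Among all 392 genes tested 34.2% were higher and 22.7% lower, and the median log2 ratio was 0.064. Beside these shares, the calls within the cell type lists are no result about any list. The 3 genes of miR-124, a defining neuronal miRNA, had 18 assigned counts in replicate 2 and 10 in replicate 1. These genes are copies with a common mature sequence, and reads that match several loci are not assigned, so these counts are not the level of miR-124. The 3p miRNA of the miR-128 genes and the 5p miRNA of the miR-218 genes also stand in another hairpin. The neuron sums thus leave out such reads of these genes too. The 5 genes for microglia and white blood cells summed to 2493 CPM in replicate 2, against 2306 CPM in replicate 1, led by Mir150. Of these 5, 2 were called higher and 1 lower. Those for red cells summed to 144 and 134 CPM, but their leading gene Mir451a stood at 83.0 and 87.9 CPM. Of the 3 tested, 1 was called higher and 0 lower. Those for choroid plexus and ependyma summed to 762 and 545 CPM, led by Mir204 at 718 and 507 CPM. Without Mir204 they summed to 43.2 and 38.1 CPM. Only 2 of these 4 genes had a count, of which 1 was called higher and 0 lower. The part of any of these in the difference of Mir219a-2 was not tested. In assigned reads the miR-219 and miR-338 genes, at 3556 CPM in replicate 2, against 2726 CPM in replicate 1, stood above the last 3 lists. They stood below the lists of vessels and neurons.

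Other miRNAs studied in oligodendrocytes and their progenitors went both ways between the libraries. Of 20 symbols listed, 18 were in the files and 16 were tested, of which 8 were higher and 4 lower in replicate 2 past the exact test. Over all genes tested 34.2% were higher and 22.7% lower. The median log2 ratio of the 16 was 0.18, against 0.064 over all 392. The miR-138 genes, whose product acts early in oligodendrocyte differentiation, went in opposite directions by small amounts, and both passed. Their 5p miRNA is cut from both hairpins, so these are levels of assigned reads too. Mir138-1 was at 5103 CPM in replicate 2, against 4725 CPM in replicate 1 (log2 ratio 0.11), and Mir138-2 at 2498 CPM and 2637 CPM (log2 ratio −0.078). They summed to 7602 CPM in replicate 2, against 7361 CPM in replicate 1, more than the assigned reads of the miR-219 and miR-338 genes together. Both sums leave out reads that match several loci.

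Mir125a, whose 3p arm slows the maturation of rodent progenitors in culture, was the most abundant gene of the list, at 17060.1 CPM in replicate 2, against 12831 CPM in replicate 1 (1.33-fold). Mir23a, which represses the lamin gene Lmnb1 in oligodendrocytes, was at 8737 and 6408 CPM (1.36-fold). Mir27a, from the same cluster, was at 174 and 132 CPM (1.32-fold). All 3 passed the test as higher in replicate 2. Mir212 was lower in replicate 2, at 1075 and 1193 CPM (log2 ratio −0.15), and also belongs to the neuron list. Mir146 was higher, at 855 and 793 CPM (log2 ratio 0.11), and is also on the list of microglia and white blood cells. Mir184 was lower, at 104 and 155 CPM (log2 ratio −0.58).

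The cluster of miR-17 to miR-92, which supports the number of progenitors, was mixed. Mir92-1 (481 CPM in replicate 2, against 330 CPM in replicate 1, 1.46-fold) and Mir18 (101 and 63.6 CPM, 1.59-fold) were higher in replicate 2, Mir17 was lower (744 and 827 CPM, log2 ratio −0.15), and Mir20a, at −0.13 on the log2 scale, did not pass. The 3p miRNAs of Mir92-1 and Mir19b-1 also stand in another hairpin. Mir19a and Mir19b-1 of this cluster had under 10 counts in each library and were not tested. Mir9-3, from a family found in progenitors, was at 79.1 and 66.2 CPM and did not pass, and none of the 3 miR-9 genes did. Every mature sequence listed for these 3 genes also stands in another hairpin, so their counts leave out such reads. Mir32, studied in mouse oligodendrocytes for its effect on myelin lipids, had 110 counts in replicate 2 and 35 in replicate 1 and was higher (1.69-fold). It was named after its values were seen, to complete the count of 8. In this list Mir32 (1.69-fold) thus lay above the 1.64-fold of Mir219a-2 and Mir18 (1.59-fold) under it, both far lower in level.

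**Figure D4:**
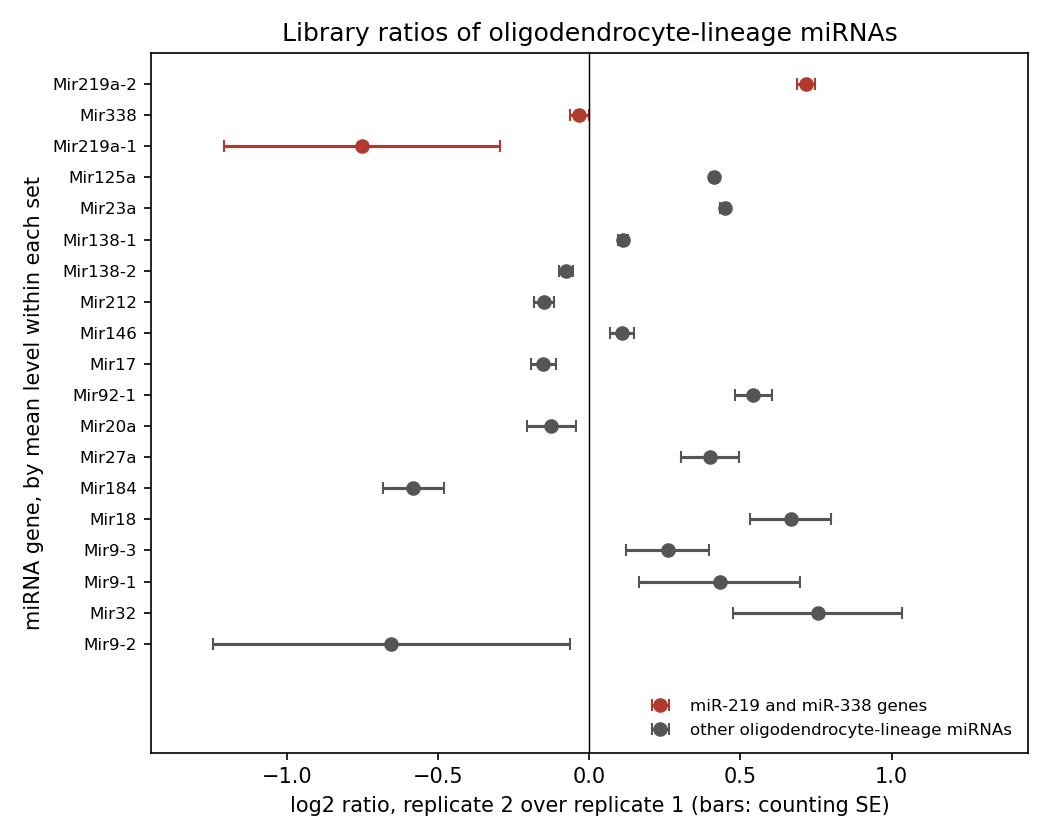
Log2 ratio of replicate 2 over replicate 1 on the x axis, with bars for the counting SE, for the 3 tested miR-219 and miR-338 genes (red) and the 16 tested genes of the list of other oligodendrocyte-lineage miRNAs (grey), each set by falling mean level. Ratios lie on both sides of 0, from −0.75 for Mir219a-1 to 0.76 for Mir32.

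The genes with the most similar pair of levels were named by distance in log2(CPM + 1) over the 2 libraries, and genes of 1 library share its depth and preparation. Nearest to Mir219a-2 was Mir129-2 (2174 CPM in replicate 2, against 1290.4 CPM in replicate 1, distance 0.0646), a brain miRNA gene that also has an annotated gene on its other strand, followed by Mir341 and Mir376a of the imprinted Dlk1-Dio3 domain at distances of 0.219 and 0.234. Nearest to Mir338 were the lymphocyte miRNA gene Mir150 (1496 and 1358 CPM, distance 0.159), Mir1983 (0.171) and Mir874 (0.340). Mir219a-1 had the same counts as Mir7070 in both libraries, and Mir200a (0.184) and Mir7666 (0.193) came next. With 2 libraries, likeness is a matter of level and of 1 ratio.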

How the data were processed

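Both libraries were made from total RNA of left cerebral cortex, per the labels, which number them as biological replicates and give each tissue sample its own animal number. The authors deposited raw read counts per gene, on assembly mm10 with GENCODE M21, per the readme files. The sources used here name neither aligner nor counting tool. Each file holds 3 columns of counts, read from the values as both strands, own strand and opposite strand. The 4 rows that name no gene stayed out of totals and tests. All 2202 identifiers matched GENCODE M21. The reference strain is C57BL/6J, and mismatches of CAST/EiJ reads were not tested. Each library comes from its own animal and counts as 1 sample. The libraries differed beyond sampling noise (chi-square 176676 on 760 degrees of freedom).

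CPM was computed from own-strand counts, with a pseudocount of 1 for log2 levels. Genes that reached 10 counts in both libraries, where 10 counts are 2.25 CPM in replicate 2 and 4.19 CPM in replicate 1, were compared by the exact conditional binomial test at an adjusted p of 0.05. The test was tried on simulated counts that held counting error only and were scaled by unchanged genes. That trial does not check it on libraries that differ as these do. edgeR's quasi-likelihood fit needs a contrast, which 1 group lacks, so edgeR 4.0.16 gave TMM factors, a common dispersion and an alternative exact test, and DESeq2 1.42.0 gave size factors (R 4.3.3). Python 3.11.15, NumPy 2.4.6, SciPy 1.17.1, pandas 2.3.3 and matplotlib 3.10.9 were used. Genes named are the 4 genes, their antisense partners, the 3 nearest genes to each, list genes reaching 100 counts in both libraries and the leading gene of each cell type list. Genes and lists were chosen with earlier results of these data known. The list symbols Mir7a-1, Mir7a-2, Mir124-2hg and Mir486b were not analysed here.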

Additional observations from a re-analysis of the deposited data

How the results depend on the processing

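No paired analysis was possible because the libraries form 1 group. The call of Mir219a-2 was lost in edgeR's exact test with the common dispersion (log2 ratio 0.72, adjusted p = 1), where 3 genes passed instead of 223. That dispersion came from the same 2 libraries, so the loss adds no separate evidence. The log2 ratio of Mir219a-2 was between 0.59 and 0.72 under every other alternative that gave a value. Mir338 passed the exact binomial test with TMM (−0.092), with DESeq2 size factors (−0.10) and with all mapped reads as the total (−0.16). That last scaling moved the median of all genes by −0.13 and gave 107 higher and 119 lower calls, against 134 and 89. It also gave mean levels of 2.70 CPM for Mir219a-1, 742 CPM for Mir219a-2 and 573 CPM for Mir338, and 0.132% for their sum, because the total is larger. Without the most abundant gene in the total, Mir338 averaged 1529 CPM. With both strands counted together Mir219a-2 and Mir338 were at 0 CPM, Mir219a-1 at 0.573 CPM and the sum at 5.73e-05%, since reads in overlapping genes are then ambiguous. Each library alone gave 2210.3 and 1345 CPM for Mir219a-2, 1341 and 1373 CPM for Mir338, 4.72 and 7.96 CPM for Mir219a-1, 0.356% and 0.273% for the sum, and 1.65 and 0.980 for the ratio of Mir219a-2 to Mir338. The genes nearest to each gene stayed the same 3 under both alternatives where a value could be had. The lower depth of replicate 1 and the counts near 20 limit what can be said of Mir219a-1.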
